A study of Mus musculus with 4 samples.

Results

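The osteoclast lineage genes examined here are 10 mouse genes of osteoclast differentiation, fusion and resorption, chosen by name: the receptor genes Tnfrsf11a, Oscar and Calcr, the transcription factor gene Nfatc1, the fusion genes Dcstamp, Ocstamp and Atp6v0d2, the integrin gene Itgb3, and the resorption genes Acp5 and Ctsk. All 10 were found by symbol among the 23107 genes of each deposited table. They were read in tdTomato+ cells that the labels call PTHrP+ and dental follicular; the follicle is the mesenchyme that encloses a growing tooth. The cells were sorted from mandibular molars of mice at postnatal day 8, after tamoxifen at postnatal day 3. Conditional knockouts labelled Ptch1(-/-) (cKO, libraries cKO_0 and cKO_1) were set against conditional heterozygotes labelled Ptch1(+/-) (cHet, libraries cHet_0 and cHet_1). Every library thus carried at least 1 targeted Ptch1 allele, and no library without one is among them. The promoter that drives the recombinase, and whether a library held 1 animal or pooled animals, are not given in the sources used here. Nothing says that the libraries of a group came from separate animals, so a p-value here measures only how far these libraries lie apart, and part of that may be technical.

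Osteoclasts are multinucleated cells that resorb bone. They form when myeloid precursors receive macrophage colony-stimulating factor and RANK ligand, fuse, attach to bone and secrete acid and proteases. Around a developing tooth, follicle cells are known as a source of these signals, and resorption of the overlying bone opens the path of eruption. Several of these genes are also transcribed outside the lineage: cathepsin K by fibroblasts and periosteal cells, NFATc1 and integrin beta 3 by endothelial cells. In sorted bulk cells, fewer cells of a type and less RNA per cell cannot be told apart.

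The 10 genes divided into 5 that were read in every library and 5 that were not. Ctsk, Acp5, Nfatc1, Tnfrsf11a and Itgb3 were at 1 FPKM (fragments per kilobase of transcript, scaled to sequencing depth, a per-length level) or more in all 4 libraries. Dcstamp, Atp6v0d2 and Oscar each had more than 3 reads in 1 library only, and Ocstamp and Calcr were listed at 0 in all 4. Between 62300000 and 85700000 reads per library lie behind the values, as the size of a single read in each column implies. The values printed are scaled counts, which appear to be read counts divided by 1 factor per library. Between 96.5% and 99.0% of them per library were whole multiples of a single step. Because others were not, read numbers given here are approximate and no count test was run. A listing of 0 allows up to 3 reads, which is 3.23 and 3.4 scaled counts in cKO_0 and cKO_1, and 2.43 and 3.14 in cHet_0 and cHet_1. That limit covers counting error only, and says nothing of molecules lost before amplification.

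**Figure D1:**
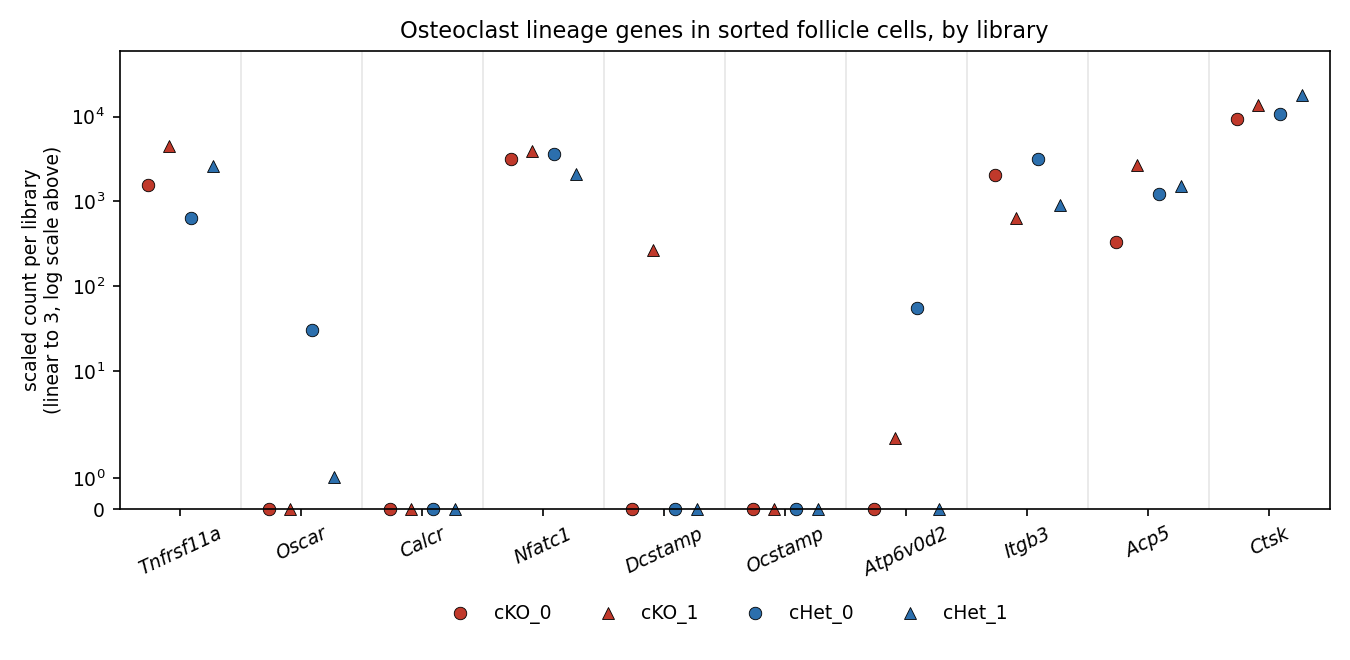
Scaled count of each osteoclast lineage gene (vertical axis, linear up to 3 and logarithmic above) in cKO_0, cKO_1, cHet_0 and cHet_1, 1 point per library, with receptors at the left, then Nfatc1, fusion genes, Itgb3 and resorption genes. Tnfrsf11a, Nfatc1, Itgb3, Acp5 and Ctsk had values in every library and overlapped between the groups, and the other 5 genes lay at or near 0 in most libraries.

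Ptch1, the targeted hedgehog receptor gene, and Gli1, a transcription factor gene that the pathway induces, serve as a check of the labels. Coordinates are on GRCm38 (mm10). Ptch1 (chromosome 13, 63508328 to 63573598) had 22420.0 and 23341 scaled counts in cKO libraries, against 12867 and 5438 in cHet libraries. A value over the whole gene does not show whether an exon was lost. Gli1 had 6388 and 6955 scaled counts in cKO libraries, against 4132 and 3349.9 in cHet libraries. Neither passed the test across all genes (limma adjusted p = 0.913 for each). Without cHet_0 the cHet group is 1 library, assumed to vary like the cKO pair, from which alone the spread then comes. That fit called 1061 genes higher, 7.42% of all genes tested, and 78 lower. Ptch1 was among those called higher (limma adjusted p = 0.0143), and a call there says little about a single gene.

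Tnfrsf11a (chromosome 1, 105780718 to 105847981) encodes RANK, the receptor through which RANK ligand starts osteoclast differentiation. It had 1580.5 and 4469.7 scaled counts in cKO_0 and cKO_1, against 636 and 2596 in cHet_0 and cHet_1. The groups overlapped, since cHet_1 lay above cKO_0. Its log2 fold change, taken throughout as cKO minus cHet after adding 3 to each scaled count, was 1.05 (SE 0.85, limma adjusted p = 0.913). It was 0.03 without cHet_0 and 0.30 without cKO_1, against 2.06 without cHet_1 and 1.80 without cKO_0.

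Per length, Tnfrsf11a stood at 4.61 and 6.51 FPKM in cKO libraries, against 1.87 and 3.16 FPKM in cHet libraries, and there the groups did not overlap. Of all genes tested, 11.5% lay higher in both cKO libraries in FPKM. The tables weigh this gene differently by library, and alike in same-numbered libraries of the groups. For 1000 scaled counts of Tnfrsf11a, cKO_0 and cKO_1 had 2.91 and 1.46 FPKM, and cHet_0 and cHet_1 had 2.95 and 1.22 FPKM. For Acp5 the same quantity was 11.7 and 13.1 FPKM in cKO libraries, and 11.5 and 12.8 FPKM in cHet libraries. Fitted on log2(FPKM + 1), the log2 fold change of Tnfrsf11a was 0.91 and was not called either.

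In scaled counts of Tnfrsf11a the 4 libraries stood from cKO_1, the highest, through cHet_1 and cKO_0 to cHet_0. In FPKM of Tnfrsf11a, cKO_0 lay above cHet_1 instead. The myeloid genes Lyz2 and Spi1, whose values follow with the myeloid markers and transcription factors, had the scaled-count order of Tnfrsf11a. Cd68, Cx3cr1, Csf1r, Tyrobp and the sum of the 20 monocyte and macrophage markers stood in other orders. The summed scaled counts of 8 dental epithelium markers also had the scaled-count order of Tnfrsf11a, but in FPKM they did not share an order. Those sums were 968754 and 2715300 in cKO_0 and cKO_1, against 578358 and 1482020 in cHet_0 and cHet_1, and all 8 markers were above 0 in every library. Of the 8, 3 had positive and 5 negative log2 fold changes (median -0.21, 0 called). How many of all genes share the scaled-count order of Tnfrsf11a was not counted. The part of either cell type in the Tnfrsf11a values was not tested. The sums were mostly the enamel matrix genes Amelx and Ambn, which are among the 3 positive markers. Amelx had 499696 and 1334660 scaled counts in cKO libraries, against 275248 and 698812 in cHet libraries. Ambn had 376029 and 976072 scaled counts in cKO libraries, against 165646 and 394081 in cHet libraries. The epithelial adhesion genes Epcam and Cdh1 went the other way. Epcam had 621 and 1002 scaled counts in cKO libraries, against 4828 and 2448 in cHet libraries (log2 fold change -2.12, SE 0.68, limma adjusted p = 0.913). Cdh1 had 2955 and 16349 scaled counts in cKO libraries, against 13278 and 22013 in cHet libraries (log2 fold change -1.30, SE 0.69), and was among 42 genes called without cKO_1, a fit with 1 cKO library.

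Oscar (chromosome 7, 3609813 to 3616157) encodes the osteoclast-associated receptor, which gives the costimulatory signal that accompanies RANK. It was listed at 0 in both cKO libraries, against 30.8 scaled counts (about 38 reads) in cHet_0 and 1.05 (about 1 read) in cHet_1. Calcr (chromosome 6, 3685680 to 3764714), the calcitonin receptor gene of mature osteoclasts, was listed at 0 in all 4 libraries. Neither gene reached 10 scaled counts in at least 2 libraries, so neither entered the test.

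Nfatc1 encodes the transcription factor that RANK signalling induces and that directs osteoclast differentiation. It had 3172 and 3953 scaled counts in cKO libraries, against 3609.8 and 2087 in cHet libraries. The groups overlapped, with cHet_0 between the cKO libraries and cHet_1 lowest. The log2 fold change was 0.37 (SE 0.47, limma adjusted p = 0.929), and it was -0.03 without cHet_1 and 0.76 without cHet_0. In FPKM the values were 9.97 and 9.04 in cKO libraries, against 11.0 and 4.54 in cHet libraries.

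Dcstamp (chromosome 15, 39745930 to 39760938) and Ocstamp (chromosome 2, 165393760 to 165400405) encode membrane proteins needed for osteoclast precursors to fuse. Dcstamp was listed at 0 in cKO_0 and 265.5 scaled counts (about 234 reads, 1.23 FPKM) in cKO_1, against 0 in both cHet libraries. Ocstamp was listed at 0 in all 4. Atp6v0d2 (chromosome 4, 19876841 to 19922605), an osteoclast subunit gene of the proton pump that also takes part in fusion, had 0 and 2.27 scaled counts in cKO libraries, against 55.9 and 0 in cHet libraries. The value in cHet_0 was about 69 reads and that in cKO_1 about 2 reads. Each of the 3 fusion genes was therefore listed at 0 in at least 2 libraries, and no library held more than 1 of them above 3 reads.

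Itgb3 (chromosome 11, 104608000 to 104670476) encodes the beta chain of the vitronectin receptor, by which osteoclasts attach to bone. It had 2036 and 632 scaled counts in cKO_0 and cKO_1, against 3195 and 897 in cHet_0 and cHet_1. In both groups the library numbered 0 was the higher, by 3.22-fold in cKO and 3.56-fold in cHet. The log2 fold change was -0.58 (SE 0.93, limma adjusted p = 0.95), and it was 0.27 without cKO_1 and 0.34 without cHet_0. Its alpha partner gene Itgav had 7618 and 6556 scaled counts in cKO libraries, against 9923 and 13457 in cHet libraries (log2 fold change -0.71, SE 0.29, limma adjusted p = 0.913). Markers of endothelial cells and platelets, which also carry this integrin, summed to 3869 and 8581 scaled counts in cKO libraries, against 3165 and 5303 in cHet libraries, over 10 genes. Of these, 8 were tested, with 6 positive and 2 negative log2 fold changes (median 3.34, 0 called). At an unadjusted p under 0.05, 2 were higher and 0 lower, against 3.03% of all genes in either direction. The endothelial gene Pecam1 had 299.5 and 1278 scaled counts in cKO libraries, against 0 and 5.23 in cHet libraries. Cldn5 had 121 and 496 scaled counts in cKO libraries, against 0.81 and 3.14 in cHet libraries. Cdh5 had 471 and 874 scaled counts in cKO libraries, against 40.5 and 69.1 in cHet libraries. The platelet integrin gene Itga2b had 460.0 and 638 scaled counts in cKO libraries, against 215 and 1.05 in cHet libraries. In these 4 of the 8 genes both cKO libraries lay above both cHet libraries, unlike in Itgb3, against 18% of all genes tested. Gp1bb lay lower in both cKO libraries, against 14.2% of all genes. The log2 fold change of Itga2b was 7.07 without cHet_0 and 1.32 without cHet_1. Pecam1 was listed at 0 in cHet_0, Emcn at 0 in cKO_0, and Gp9 at 0 in every library but cKO_0. The most abundant of the markers were the 2 negative ones, Kdr, at 1944 and 3145 scaled counts in cKO libraries and 1900.4 and 4054 in cHet libraries, and Gp1bb, at 419 and 562 in cKO libraries and 717 and 1166 in cHet libraries. Their part in the Itgb3 values was not tested.

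Acp5 (chromosome 9, 22126727 to 22135711) encodes tartrate-resistant acid phosphatase, the classical stain of osteoclasts. It had 331 and 2696 scaled counts in cKO_0 and cKO_1, against 1237 and 1508 in cHet_0 and cHet_1. The cKO libraries held both the lowest and the highest value, 8.15-fold apart, while the cHet libraries were 1.22-fold apart. Of all genes tested, 89.0% were closer together than Acp5 within cKO. The log2 fold change was -0.53 (SE 1.09, limma adjusted p = 0.967), although the ratio of the means, cKO over cHet, was 1.10. Without cKO_0 the log2 fold change was 0.98, and without cKO_1 it was -2.04.

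Ctsk (chromosome 3, 95499256 to 95509362) encodes cathepsin K, the protease with which osteoclasts degrade type I collagen. It was the most abundant of the 10 genes, at 9508 and 13765 scaled counts in cKO libraries, against 10706 and 18158 in cHet libraries. The groups overlapped, and the log2 fold change was -0.29 (SE 0.34, limma adjusted p = 0.923), with 0.10 without cHet_1, -0.02 without cKO_0, -0.55 without cKO_1 and -0.67 without cHet_0. In FPKM, cKO libraries stood at 99.2 and 105, against 113 and 127 in cHet libraries, where both cKO libraries lay below both cHet libraries, as did 8.73% of all genes tested. Ctsk exceeded at least 96.9% of all genes in FPKM in each library.

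Per length, the order of the mean levels over the 4 libraries was Ctsk (111 FPKM), Acp5 (18.1), Nfatc1 (8.64), Tnfrsf11a (4.04), Itgb3 (3.83), Dcstamp (0.306), Atp6v0d2 (0.0854) and Oscar (0.0689), with Calcr and Ocstamp at 0. The range of Ctsk did not overlap that of Acp5 over the 4 libraries. Every other neighbour in this order overlapped the next. Tnfrsf11a was above Itgb3 in 2 of the 4 libraries, and Nfatc1 was above Tnfrsf11a in all 4.

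Of the 10 genes, 5 reached 10 scaled counts in 2 or more libraries and were tested. At a limma adjusted p under 0.05, 0 of the 5 were higher and 0 lower in cKO, where 0% of the 14297 genes tested were called. At an unadjusted p under 0.05 there were also 0 of the 5, against 3.03% of all genes. In scaled counts 0 of the 5 had groups that did not overlap, against 32.2% of all genes. In FPKM 2 of the 5 did not overlap, Tnfrsf11a higher and Ctsk lower in cKO, against 20.2% of all genes. The median log2 fold change of the 5 was -0.29 (2 positive, 3 negative), against 0.12 over all genes tested. With 1 library left out it was 0.53 without cKO_0, 0.21 without cKO_1, 0.03 without cHet_0 and -0.03 without cHet_1. With 2 libraries against 2, an exact permutation test of a single value cannot give a two-sided p below 0.33.

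**Figure D2:**
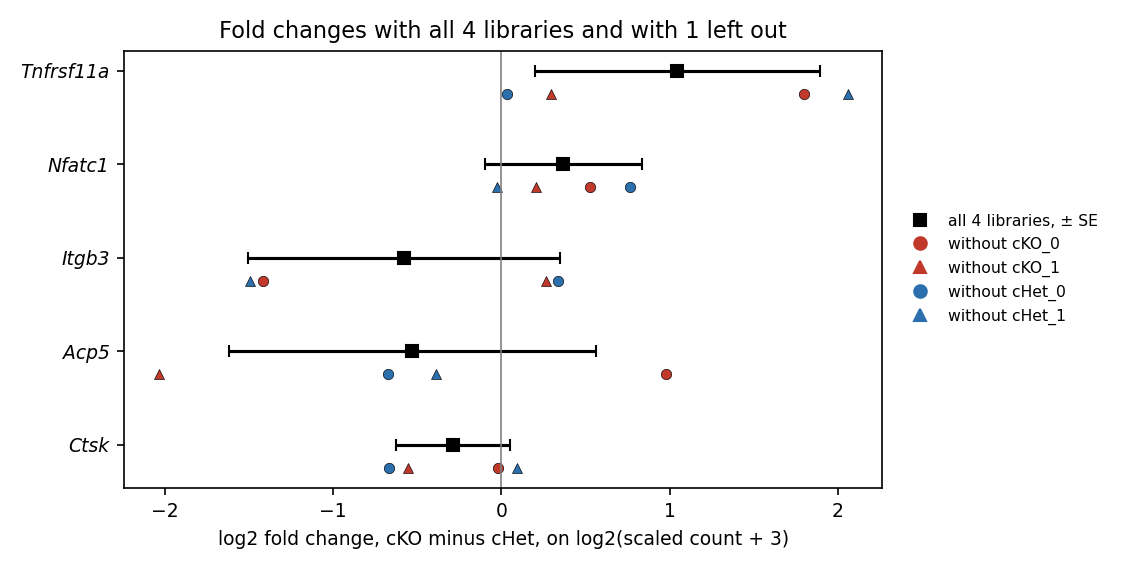
Log2 fold change (horizontal axis, cKO minus cHet) of the 5 osteoclast lineage genes tested, with all 4 libraries as squares with standard errors, and with each library left out as coloured points. Acp5 ran between -2.04 and 0.98, and Itgb3 between -1.49 and 0.34, when 1 library was left out.

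The sequence before the start of transcription is shown for 3 of the genes at different places in this order: Ctsk, the most abundant, Tnfrsf11a, the receptor read in every library, and Oscar, listed at 0 in both cKO libraries. Sequences are from RefSeq on GRCm38.p6 and run 5′ to 3′ over the 250 bases before the start annotated there. For Tnfrsf11a and Oscar, bases just after the window were found in a GENCODE transcript of the gene. For Ctsk they were not. Its window ends at 95499209, short of the GENCODE gene start at 95499256. Capitals mark matches, on either strand, to 6 motifs. The core bound by NFAT factors is GGAAA, and the core of the myeloid factor PU.1 is GAGGAA. The site of AP-1 dimers is TGANTCA. The E-boxes of the MITF and TFE family are CACGTG or, in its other form, CATGTG. The motif of the basal promoter is TATAAA. Matches to the NFAT and PU.1 cores can overlap.
Ctsk, chr3:95498960-95499209, plus strand: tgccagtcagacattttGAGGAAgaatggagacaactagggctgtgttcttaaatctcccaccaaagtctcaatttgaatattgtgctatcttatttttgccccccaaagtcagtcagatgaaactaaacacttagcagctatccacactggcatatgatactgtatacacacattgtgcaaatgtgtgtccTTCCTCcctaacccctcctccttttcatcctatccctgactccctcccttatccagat
Tnfrsf11a, chr1:105780473-105780722, plus strand: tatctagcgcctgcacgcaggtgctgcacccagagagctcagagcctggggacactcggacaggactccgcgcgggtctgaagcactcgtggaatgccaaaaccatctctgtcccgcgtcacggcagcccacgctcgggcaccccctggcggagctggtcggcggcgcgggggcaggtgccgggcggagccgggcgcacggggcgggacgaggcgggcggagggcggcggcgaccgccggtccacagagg
Oscar, chr7:3616158-3616407, minus strand: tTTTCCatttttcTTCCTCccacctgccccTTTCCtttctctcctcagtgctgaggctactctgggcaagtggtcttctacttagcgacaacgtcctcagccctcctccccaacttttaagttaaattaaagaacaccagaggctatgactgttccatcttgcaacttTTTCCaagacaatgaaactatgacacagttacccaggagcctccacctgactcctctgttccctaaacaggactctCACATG
The Ctsk window held 2 matches to GAGGAA and 0 CpG dinucleotides. The Oscar window held 3 matches to GGAAA, 1 to GAGGAA, 1 to CATGTG and 2 CpG. The Tnfrsf11a window held no match to any of the 6 and 31 CpG, more than 94.8% of 32851 mouse windows of that length, whose median was 6. Among those windows 55.6% held GGAAA, 23.3% GAGGAA, 6.75% TGANTCA, 6.02% CACGTG, 12.3% CATGTG and 12.4% TATAAA, and a match is a description of these letters only. Acp5 has 3 annotated starts, with 5, 12 and 4 CpG in their windows, and the window of the most downstream start (22130599 to 22130848) held 2 matches to GGAAA and 1 to CATGTG. Calcr, listed at 0, has 2 starts, with 24 and 2 CpG. Gene counts do not show which start was used.

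Myeloid markers bear on whether precursors or osteoclasts were among the sorted cells. The 20 monocyte and macrophage markers summed to 2128 and 18942 scaled counts in cKO_0 and cKO_1, against 3152 and 11300.1 in cHet_0 and cHet_1. Those at 0 numbered 5 and 0 in the cKO libraries, against 1 and 4 in the cHet libraries, and the markers at 1 FPKM or more numbered 6 and 13, against 8 and 7. The sums were thus highest in cKO_1 and lowest in cKO_0, and the 4 libraries stood in the same order as in Acp5. How many of all genes share that order was not counted. The part of these cells in the Acp5 values was not tested.

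Single markers differed in their order over the libraries. The lysozyme gene Lyz2 had 853 and 6546 scaled counts in cKO libraries, against 531 and 4385 in cHet libraries. The fractalkine receptor gene Cx3cr1 had 219 and 1272 scaled counts in cKO libraries, against 252 and 2056 in cHet libraries. Both genes were higher in the library numbered 1 of each group. The lysosomal gene Cd68 had 91.6 and 807 scaled counts in cKO libraries, against 139 and 1771 in cHet libraries. Adgre1, which encodes the macrophage marker F4/80, had 0 and 2.27 scaled counts in cKO libraries, against 36.4 and 203 in cHet libraries. Ptprc, the common leukocyte antigen gene CD45, had 62.5 and 76.0 scaled counts in cKO libraries, against 0.81 and 0 in cHet libraries, none above 0.163 FPKM. Markers were uneven within more than 1 library. In cKO_1, Csf1r stood at 2151 scaled counts and Adgre1 at 2.27. The library cHet_1 had Cd68 and Cx3cr1 high and Csf1r and Ptprc at or near 0. Over all genes it had the fewest at 1 FPKM or more, 9850, against 12192, 11355 and 12360 in cKO_0, cKO_1 and cHet_0. It also had the most genes at 0 (8753), though at 68100000 reads it was not the shallowest library. Of the 18 markers tested, 10 had positive and 8 negative log2 fold changes (median 0.37). None of the 18 passed (limma adjusted p of at least 0.913), and 0 did at an unadjusted p under 0.05, against 3.03% of all genes.

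**Figure D3:**
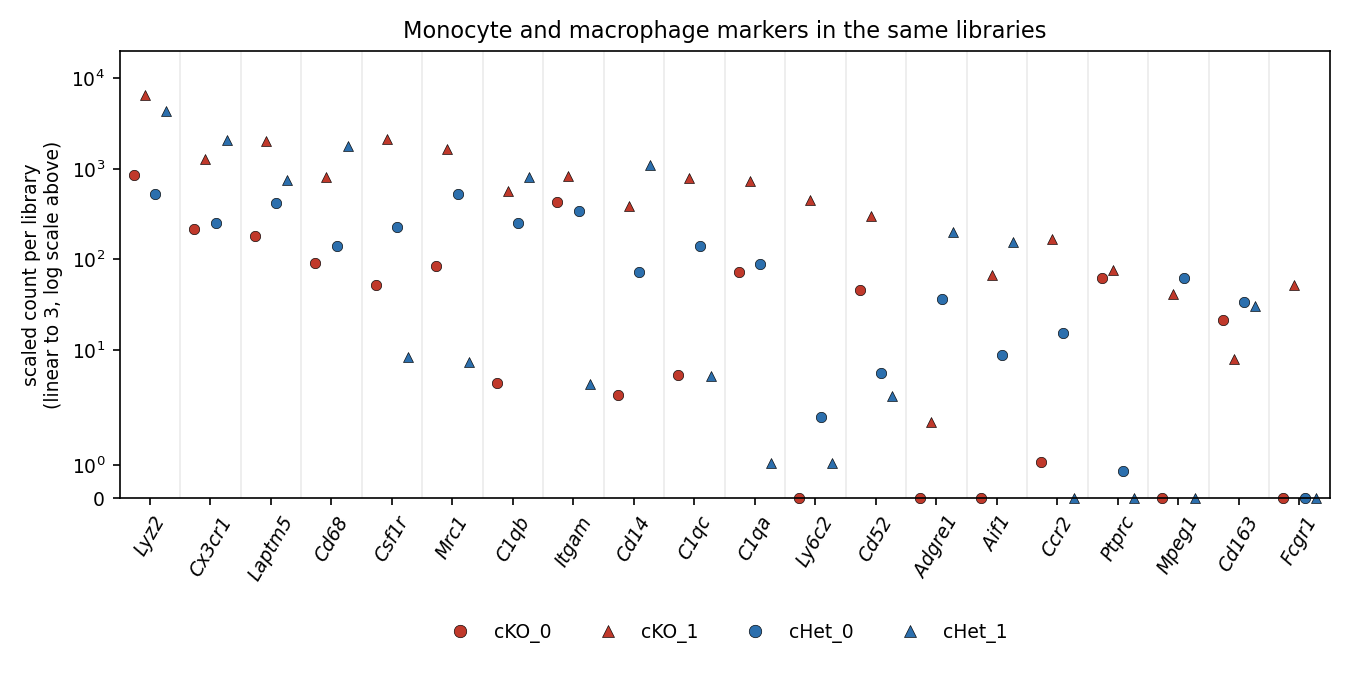
Scaled count of 20 monocyte and macrophage markers (vertical axis, linear up to 3 and logarithmic above) in the 2 cKO and 2 cHet libraries, ordered by mean level. Lyz2, Cx3cr1 and Cd68 were high in the libraries numbered 1 of both groups, while Csf1r and Mrc1 were high in cKO_1 and under 10 scaled counts in cHet_1.

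The labelled cell type was set beside 12 dental follicle markers. Their share of all scaled counts was 6.47% and 6.14% in cKO libraries, against 8.88% and 9.64% in cHet libraries, and all 12 were above 0 in every library. Most of that share was Col1a1 and Col3a1. In FPKM the 12 summed to 13763 and 13446 in cKO libraries, against 19394 and 20658 in cHet libraries. The 8 dental epithelium markers summed to 14588 and 37775 FPKM in cKO libraries, against 8029 and 18145 in cHet libraries. Of the 12, 2 had positive and 10 negative log2 fold changes (median -0.91, 0 called). At an unadjusted p under 0.05, 6 of the 12 were lower and 0 higher in cKO. Of the 14297 genes tested, 213 were lower and 220 higher at that p. Of the 12, 7 lay lower in both cKO libraries, against 14.2% of all genes. Those with the lowest p were Tnn and Dcn. Tnn, which encodes the matrix protein tenascin-W, had 2676 and 3549 scaled counts in cKO libraries, against 10118 and 24448 in cHet libraries (log2 fold change -2.35, SE 0.44, limma adjusted p = 0.913). It was called lower without cKO_0, without cKO_1 or without cHet_0, each a fit with 1 library in a group, and not without cHet_1. Dcn, which encodes the proteoglycan decorin, had 19594 and 23248 scaled counts in cKO libraries, against 54343 and 46719 in cHet libraries (log2 fold change -1.24, SE 0.23, limma adjusted p = 0.913). The most abundant were Col3a1, at 2142840 and 2004620 scaled counts in cKO libraries and 2057080 and 2879290 in cHet libraries, and Col1a1, at 2122200 and 2099810 scaled counts in cKO libraries and 3673200 and 3370910 in cHet libraries. The osteoclast lineage genes made up 0.0239% and 0.0365% in cKO libraries, against 0.0281% and 0.0354% in cHet libraries. Most of that was Ctsk. Of the 10 osteoblast and cementoblast markers, 4 had positive and 6 negative log2 fold changes (median -0.55, 0 called). Of the 10, 5 lay lower in both cKO libraries, against 14.2% of all genes. At an unadjusted p under 0.05, 2 were lower and 0 higher, against 213 lower and 220 higher of all 14297 genes. The 2 were Phex and Smpd3. Phex, an endopeptidase gene of osteoblasts and osteocytes, had 95.9 and 339 scaled counts in cKO libraries, against 2763 and 3653 in cHet libraries (log2 fold change -4.11, SE 1.11). Smpd3, a sphingomyelinase gene, had 11136 and 7455 scaled counts in cKO libraries, against 44929 and 19766 in cHet libraries (log2 fold change -1.71, SE 0.40), and was among 12 genes called without cKO_0, a fit with 1 cKO library. The most abundant were Col1a2 and Ibsp. Col1a2, a chain of type I collagen, had 1085200 and 1143690 scaled counts in cKO libraries, against 1656740 and 1864100 in cHet libraries. Ibsp, which encodes bone sialoprotein, had 141908 and 121729 scaled counts in cKO libraries, against 86821 and 186558 in cHet libraries.

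Upstream of the receptors, Csf1, Tnfsf11 and Pthlh were among the ligand genes read in every library. Csf1, the macrophage colony-stimulating factor gene, had 7922 and 6081 scaled counts in cKO libraries, against 5272 and 7842 in cHet libraries. Tnfsf11, which encodes RANK ligand, had 398 and 597 scaled counts in cKO libraries, against 560.3 and 665 in cHet libraries. Pthlh, the PTHrP gene, had 12267 and 8613 scaled counts in cKO libraries, against 9253 and 15879 in cHet libraries. The groups overlapped for each of these 3 genes.

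Tnfrsf11b, which encodes osteoprotegerin, the decoy that binds RANK ligand, had 92.7 and 1021 scaled counts in cKO libraries, against 1839.7 and 4149 in cHet libraries. Both cKO libraries lay below both cHet libraries, as did 14.2% of all genes tested. The log2 fold change was -3.14 (SE 1.27, limma adjusted p = 0.913), and it was -1.43 without cKO_0 and -4.85 without cKO_1. The ratio of Tnfsf11 to Tnfrsf11b in FPKM was 5.74 and 0.82 in cKO libraries, against 0.404 and 0.203 in cHet libraries. It was higher in both cKO libraries, and the cKO libraries differed from each other more than cKO_1 from cHet_0. The ratio of 5.74 rests on Tnfrsf11b at 0.48 FPKM in cKO_0, and Tnfsf11 itself overlapped between the groups. How often other gene pairs differ so was not counted. Csf1r, the receptor for the colony-stimulating factor, had 52.8 and 2151 scaled counts in cKO libraries, against 227.5 and 8.37 in cHet libraries.

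Of the 23 inducing ligands, decoys and receptors, 17 were tested, with 11 positive and 6 negative log2 fold changes, a median of 0.11 and 0 called in either direction. Those with the lowest p were Ror2, a Wnt5a receptor gene, Tnfrsf11b and the ephrin gene Efnb2. Ror2 had 10346 and 8154 scaled counts in cKO libraries, against 5496 and 4352 in cHet libraries (log2 fold change 0.91, SE 0.32, limma adjusted p = 0.913). Efnb2 had 6271 and 5997 scaled counts in cKO libraries, against 7908 and 8637 in cHet libraries (log2 fold change -0.43, SE 0.29).

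Of 34 genes that carry the RANK signal and the costimulatory signal of ITAM adaptors, 29 were tested, with 15 positive and 14 negative values, a median of 0.09 and 0 called. The scaffold gene Gab2, which joins RANK to downstream kinases, had 4903 and 5739 scaled counts in cKO libraries, against 1892 and 3219 in cHet libraries (log2 fold change 1.10, SE 0.43, limma adjusted p = 0.913). The kinase gene Tec had 1388 and 1466 scaled counts in cKO libraries, against 541 and 100.5 in cHet libraries, and was among the 7.42% of genes called higher in the fit without cHet_0, where the spread comes from the cKO pair alone (limma adjusted p = 0.0379). The AP-1 gene Fosl2 had 9165 and 11732 scaled counts in cKO libraries, against 8748 and 4969.8 in cHet libraries. Tyrobp, the ITAM adaptor gene DAP12 that pairs with receptors of myeloid cells, had 6.46 and 531 scaled counts in cKO libraries, against 76.1 and 519 in cHet libraries. Of the 29, 6 lay higher in both cKO libraries, against 18% of all genes tested: Gab2, Tec, Fosl2, Jun, Map3k14 and Relb. Another 8 lay lower in both cKO libraries, against 14.2% of all genes: Traf6, Map3k7, Ikbkb, Ikbkg, Nfkb1, Rela, Vav3 and Cbl. Genes that act between RANK and NF-kB or encode its subunits stood on both sides. These were Map3k14 and Relb among the higher, and the first 6 of the 8 lower. In FPKM, 5 of the 29 lay higher in both cKO libraries and 3 lower, against 11.5% and 8.73% of all genes. Of the 8, only Nfkb1 and Rela were lower there too.

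Of 19 transcription factors and repressors of the lineage, 17 were tested, with 12 positive and 5 negative values, a median of 0.61 and 0 called. Spi1, listed under its older symbol Sfpi1, encodes PU.1, which the lineage needs from its first step, and had 168 and 1616 scaled counts in cKO libraries, against 42.9 and 946 in cHet libraries. Those with the lowest p were Id2, Ppargc1b and Tfe3. Id2, a repressor gene of osteoclast differentiation, had 15512 and 16846 scaled counts in cKO libraries, against 14444 and 8447 in cHet libraries. Ppargc1b, a coactivator gene of mitochondrial biogenesis, had 1084 and 2069 scaled counts in cKO libraries, against 1047 and 12.6 in cHet libraries, so that its log2 fold change of 3.55 (SE 2.06) was 0.52 without cHet_1. Without cHet_0 it was 6.59, set against the 1 low value of cHet_1, and among the 7.42% of genes called higher with the spread taken from the cKO pair alone (limma adjusted p = 0.0184). Tfe3, a relative of MITF, had 5181 and 6881 scaled counts in cKO libraries, against 5403 and 2372 in cHet libraries.

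Of 21 fusion and adhesion genes beside the members, 20 were tested, with 9 positive and 11 negative values, a median of -0.05 and 0 called. Beside Itgav, those with the lowest p were Spp1 and Sirpa. Spp1, which encodes osteopontin, a ligand of the integrin, had 13501 and 27320 scaled counts in cKO libraries, against 15202 and 10235 in cHet libraries. Sirpa, a fusion receptor gene for CD47, had 3912 and 10393 scaled counts in cKO libraries, against 3934 and 3663 in cHet libraries. Both overlapped between the groups in scaled counts.

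All 29 genes of acid secretion and matrix resorption were tested, with 15 positive and 14 negative values, a median of 0.06 and 0 called. Mmp9, a gelatinase gene of osteoclasts and other cells, had 7325 and 11833 scaled counts in cKO libraries, against 2371 and 1731 in cHet libraries. Both cKO libraries lay above both cHet libraries, and the fitted fold was 4.59 (SE 0.41 on the log2 scale, limma adjusted p = 0.913). Its log2 fold change lay between 1.85 and 2.54 when 1 library was left out, and it was among the 7.42% of genes called higher without cHet_0, where the spread comes from the cKO pair alone (limma adjusted p = 0.0225). Tcirg1, the osteoclast a3 subunit gene of the proton pump, had 5881 and 4415 scaled counts in cKO libraries, against 3779.8 and 4028 in cHet libraries (log2 fold change 0.38, SE 0.36). Atp6v1g1, a pump subunit gene common to all cells, had 4287 and 6277 scaled counts in cKO libraries, against 6398 and 14113 in cHet libraries (log2 fold change -0.87, SE 0.43).

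Atp6v0c, which encodes the proton-conducting ring of the pump, was listed at 0 in both cKO libraries, against 395 and 3121 scaled counts in cHet libraries. Its processed pseudogene Atp6v0c-ps2 was listed at 29964 and 42465 scaled counts in cKO libraries, against 31380.0 and 21604 in cHet libraries. The counting could split reads between a gene and such a copy, so the listing of Atp6v0c is uncertain.

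**Figure D4:**
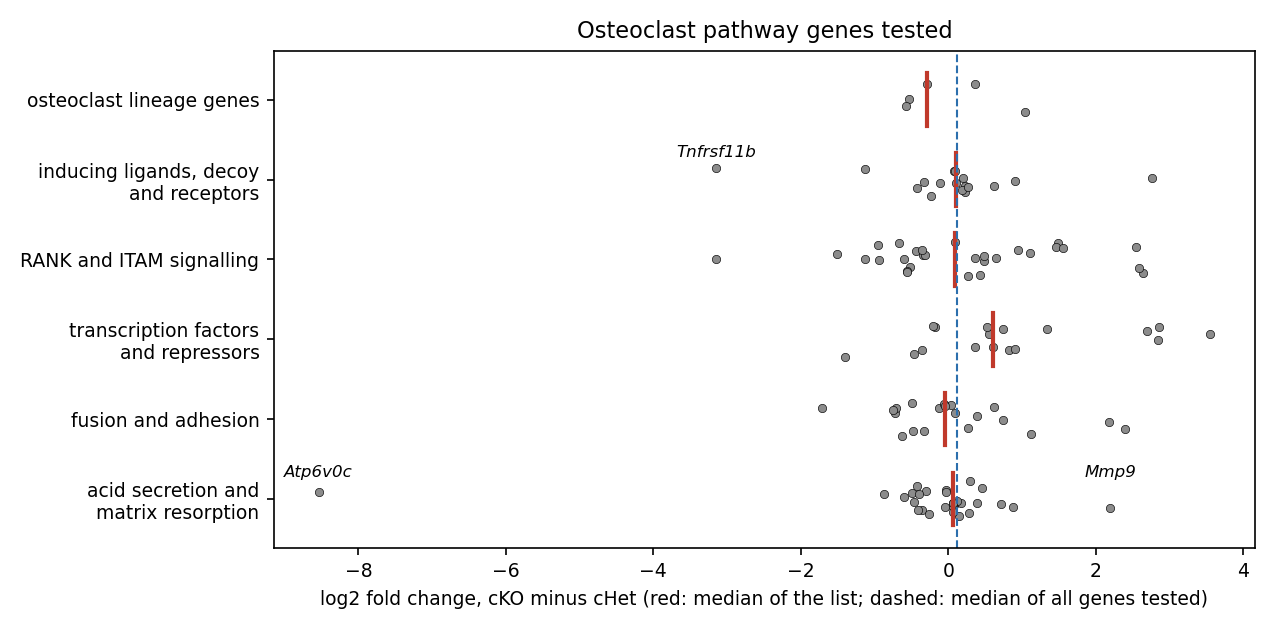
Log2 fold change (horizontal axis, cKO minus cHet) of every tested gene in the osteoclast lineage genes and in 5 lists of the osteoclast pathway, 1 point per gene, with the median of each list in red and the median of all 14297 genes tested (0.12) as a dashed line. No gene passed the limma test, and the list medians lay between -0.29 and 0.61.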

How the data were processed

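RNA of sorted cells was amplified with SMART-Seq v4 and made into libraries with Nextera XT, per the labels' protocols. The submitters' processing notes name the build mm10 and, without roles, the tools TopHat2 (2.0.13), Bowtie2 (2.2.1), HTSeq, DESeq2, Cufflinks, Cuffdiff and FastQC. For counting, strand use is not given in these sources; Acp5 and Nfatc1 each overlap an antisense gene in the annotation. The main values are a signal unit: scaled counts, apparently gene counts that the authors divided by a factor for each library, of which 96.5% to 99.0% below 100000 were whole multiples of 1 step within 0.1 of a read. The authors also deposited FPKM values, relative to transcript length and library size. Another 4 tables have 16 columns whose names fit none of the labels, and these were left out. Library numbers start at 0 in the columns and at 1 in the titles; each column was therefore mapped to its group alone.

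The test was limma (3.58.1, R 4.3.3) with its trend option on log2(scaled count + 3), over the 14297 genes that reached 10 scaled counts in 2 or more libraries. Group was the only term. Two-sided p-values were adjusted over all these genes by Benjamini-Hochberg, and the threshold was 0.05. Standard errors are moderated across genes, and fold changes on this scale understate those of low genes. Alternatives were other pseudocounts, filters, scalings, FPKM, library weights, the column number as a block, and each library left out. The members and the other 10 lists (186 entries, all matched, 4 by an older symbol in RefSeq) were chosen with earlier results of these data known. Named beside the members were Ptch1, Gli1 and 12 fixed pathway and myeloid genes, the 3 genes of lowest p in each pathway list, and the 2 most abundant of each marker list. Other markers and Atp6v0c-ps2 were named after their values were seen. So were the RANK signalling genes listed as higher or lower in both cKO libraries, beyond the 3 of lowest p. Coordinates are 1-based from GENCODE vM21 (GRCm38, the assembly of mm10), and promoter windows are from RefSeq.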

Additional observations from a re-analysis of the deposited data

How the results depend on the processing

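Under 15 alternatives 0 of the tested osteoclast lineage genes were called, and 70 of 75 fold changes of the 5 genes kept their direction. The 5 others came from leaving out 1 library, with ranges of -2.04 to 0.98 for Acp5, -0.67 to 0.10 for Ctsk, -0.028 to 0.76 for Nfatc1 and -1.49 to 0.34 for Itgb3. Tnfrsf11a ran from 0.03 to 2.06. Their median ran from -0.028 to 0.53 with 1 library left out. Over all genes, 0 calls became 7 with log2(FPKM + 1), 2 with log2(FPKM + 0.1), and 0 to 1139 with 1 library left out, the highest (1061 higher, 78 lower) without cHet_0, where cHet is 1 library and the spread comes from the cKO pair. Median-of-ratios and TMM scaling moved the median of all genes from 0.12 to 0.02, and turned Ibsp, an osteoblast gene, to -0.058 and -0.062 (0.05 as reported). The column number as a replicate block called 0 genes. Deviations of same-numbered libraries correlated at 0.0486 across genes, and the numbers were not taken to pair libraries. That correlation covers scaled counts alone. For Ctsk, Nfatc1, Tnfrsf11a and Itgb3, FPKM per 1000 scaled counts was higher in both libraries numbered 0 than in both numbered 1. For Acp5 it was lower. What same-numbered libraries share was not tested. With 1 library left out, direction also turned for Csf1 (-0.18 to 0.40), Pthlh (-0.63 to 0.15), Spi1 (-0.85 to 3.52), Tyrobp (-4.42 to 1.39), Cd68 (-2.68 to 0.96), Lyz2 (-0.89 to 2.15), Cx3cr1 (-1.95 to 1.06), Mrc1 (-0.46 to 5.20), Kdr (-0.71 to 0.38), Col3a1 (-0.47 to 0.011) and Ibsp (-0.51 to 0.60). Fits that leave 1 library in a group called Ptch1, Mmp9, Tec, Ppargc1b and Itga2b higher without cHet_0, and called lower Tnn in 3 of the 4, Cdh1 without cKO_1 and Smpd3 without cKO_0. The cause was not tested. A listing of 0 allows up to 3 reads; what holds genes near 0 was not tested.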
